A study of Mus musculus with 6 samples.

Results

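The cytosolic ribosomal protein genes of mouse embryonic stem cells are described here, gene by gene, before and after 4-hydroxytamoxifen treatment of a line whose Ezh2 alleles are floxed. Members were every protein-coding gene of the deposited table whose symbol is Rpl or Rps followed by a number and at most 1 letter of a, x or y, together with Rplp0, Rplp1, Rplp2 and Rpsa. Pseudogenes, "-like" genes and Rps6 kinases were left out. The rule found 72 of the 22933 genes in the table, 44 for the large and 28 for the small ribosomal subunit. It used names and no measured value.

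All 6 libraries came from Ezh2 fl/fl embryonic stem cells grown on gelatin with LIF. The 3 untreated libraries are labelled wild type and still carry the floxed alleles. The 3 treated libraries are labelled Ezh2 KO and came from cells given 800 nM 4-hydroxytamoxifen for 96 h, with RNA taken on day 4. Total RNA was depleted of ribosomal RNA with Ribo-Zero Gold, fragmented, and made into libraries with an Illumina directional kit and a NEBNext kit for small RNA. The labels do not name the Cre that the drug switches on. The groups therefore differ in the drug as well as in the genotype. No label says that the 3 replicates of a group were separate cultures, so p-values measure the spread between these libraries, which may be technical.

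A ribosome has a small subunit, which reads the messenger RNA, and a large subunit, which forms the peptide bonds. Apart from the stalk proteins, they are needed in equal number, and most of their messages start with a run of pyrimidines, the 5′ TOP motif, through which mTORC1 signalling controls their translation. Many of these genes carry small nucleolar RNAs (snoRNAs) in their introns. A snoRNA is cut out of the spliced intron and then guides the modification or processing of ribosomal RNA, so 1 gene can give both a protein message and a stable short RNA. Embryonic stem cells divide fast and make many ribosomes. Ezh2 is the catalytic subunit of Polycomb repressive complex 2, which methylates histone H3 at lysine 27.

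The snoRNAs matter here because a value per gene from total RNA may include a snoRNA in an intron along with the spliced message. The counting rule is not given, so whether such reads count for the host gene is not known. GENCODE vM21 (build GRCm38) places 55 snoRNA genes inside 28 of the 72 members on the same strand, and 54 of them lie in an intron of the longest coding transcript. The exception was Snora7a in Rpl32. The 5 sequences below were chosen because they lie in 3 of the members with the most reads per kilobase. Rpl13a holds 4 snoRNAs, of which 3 are shown. The sequences are those of the GENCODE transcripts, 5′ to 3′, and capitals mark the box C letters TGATG and the box D letters CTGA that define the C/D class of snoRNA.
Snord83b in Rpl3, chr15:80078498-80078591, minus strand: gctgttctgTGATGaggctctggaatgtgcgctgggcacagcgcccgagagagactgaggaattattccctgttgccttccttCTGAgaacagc
Snord100 in Rps12, chr10:23785750-23785823, minus strand: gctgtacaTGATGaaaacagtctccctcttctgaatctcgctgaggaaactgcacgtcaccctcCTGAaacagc
Snord32a in Rpl13a, chr7:45127382-45127464, minus strand: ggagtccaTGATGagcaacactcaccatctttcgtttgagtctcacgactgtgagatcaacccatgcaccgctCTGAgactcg
Snord33 in Rpl13a, chr7:45126864-45126947, minus strand: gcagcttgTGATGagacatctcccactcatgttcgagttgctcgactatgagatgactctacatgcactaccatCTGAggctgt
Snord34 in Rpl13a, chr7:45126601-45126670, minus strand: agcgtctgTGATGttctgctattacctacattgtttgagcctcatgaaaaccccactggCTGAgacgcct
On the transcript strand, TGATG in the first 25 bases and CTGA in the last 25 were both found in 32 of the 55 snoRNAs inside members (58.2%), against 362 of all 1507 annotated snoRNA transcripts (24.0%) and 86 of the 98 named Snord (87.8%). A match says only that these letters are present.

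The other sequence feature bears on whether members share a start of the TOP kind. RefSeq start windows of 30 bases, 15 on either side of the annotated start on GRCm38.p6, matched 52 of the 72 members by symbol. An unbroken run of at least 7 C or T letters on the transcript strand was found in 30 of the 52 (57.7%), and in 5747 of all 27025 genes with a window (21.3%). Where a gene had several annotated starts, the start with the longest run was kept, in members and all genes alike. The median longest run was 7 bases in members and 5 in all genes. The windows below are from 7 members named in the results, and a run of 7 or more is in capitals. A window with no capitals holds no such run.
Rpl7a, chr2:26910792-26910821, plus strand: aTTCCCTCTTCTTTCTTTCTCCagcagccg
Rpl35a, chr16:33056467-33056496, plus strand: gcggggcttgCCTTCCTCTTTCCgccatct
Rpl13a, chr7:45128731-45128760, minus strand: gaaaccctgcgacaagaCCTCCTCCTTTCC
Rps6, chr4:86857353-86857382, minus strand: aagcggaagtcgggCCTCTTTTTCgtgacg
Rps12, chr10:23787195-23787224, minus strand: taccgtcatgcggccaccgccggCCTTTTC
Rpl5, chr5:107900513-107900542, plus strand: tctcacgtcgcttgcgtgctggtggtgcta
Rps4x, chrX:102189377-102189406, minus strand: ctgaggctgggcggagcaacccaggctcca
The window follows the annotated start, which can differ from the start used in these cells. A missing run therefore says only that these letters are not in the window.

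The deposited table gives 1 normalized signal per gene and library. Every value above 0 could be solved for the whole number of reads behind it, called recovered reads below, and totals ran from 2334448 to 5689666 reads per library. The 10 genes with the most reads summed over the 6 libraries took 20.2% to 36.4% of a library. Ezh2 itself, the check of the labels, had deposited signals of 4165, 3620 and 3483 in untreated libraries and 2258, 2559 and 2609 after tamoxifen, a mean of 65.9% of untreated, so all 3 treated libraries were lower. Its log2 fold change was -0.60, with an adjusted p of 0.157 in limma, which misses the threshold of 0.05. Its recovered reads, not scaled for library totals, were 694, 557 and 181 in untreated and 277, 288 and 520 in treated libraries, which overlap. On recovered reads with trimmed-mean scaling its log2 fold change was -0.40. The 8 embryonic stem cell markers were all measured, and their summed signal was 56726 to 80397 in untreated and 62428 to 67634 in treated libraries. Feeder fibroblast markers were near the floor, with 15 to 84 and 36 to 105 summed reads, and Lum had 0 reads in every library. The 7 primitive endoderm markers tested lay above 0 in 7 of 7, with a median log2 fold change of 1.33, and the summed signal of all 8 listed was 11649 to 12680 in untreated and 19820 to 24730 in treated libraries. None passed the adjusted test. Their part in the ribosomal protein results was not tested.

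Ribosomal protein genes were far above the ordinary gene of these cells, and those with snoRNAs in them were the highest. Levels are given as RPM, recovered reads scaled to a library total of 1000000. Per kilobase of transcript, the median member had 160 RPM over the 6 libraries, against 7.34 for all tested genes with a length. Members with a snoRNA had a median of 952 and those without 81.4. By number of snoRNAs the median was 517 with 1 (14 genes), 1103 with 2 (5 genes) and 2857 with 3 or more (9 genes). Among other tested genes, the median was 20.6 for the 218 with a snoRNA and 7.15 for those without. A snoRNA was annotated in 38.9% of members, in 45.5% of the large and 28.6% of the small subunit genes, against 1.91% of other tested genes. In this and the following per kilobase values the length is that of the longest spliced transcript, a coding one where annotated. The share of reads that came from the snoRNA was not measured.

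**Figure D1:**
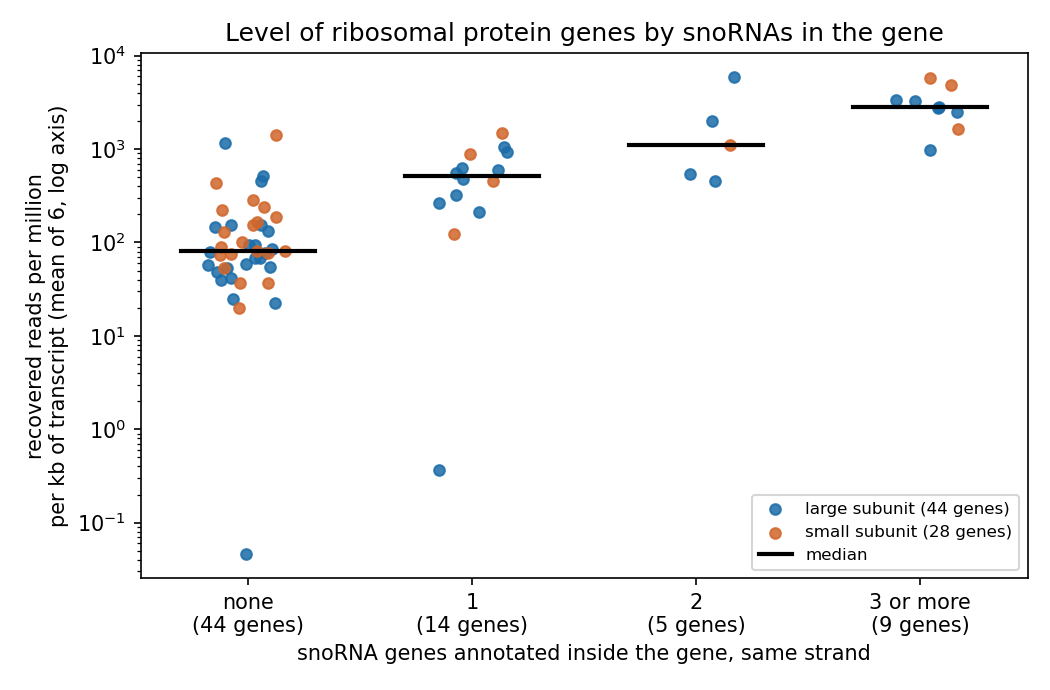
RPM per kilobase of transcript (recovered reads scaled to a total of 1000000), mean of 6 libraries on a log axis, for each of the 72 ribosomal protein genes, grouped by the number of snoRNA genes annotated inside. Points are genes coloured by subunit and bars are medians, which rise from 81.4 with none to 2857 with 3 or more; the lowest points, at under 1, are Rpl13 and Rpl35.

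The order of levels was led by genes with snoRNAs. Rpl3, a large subunit protein near the peptidyl transferase centre, had 5930 RPM per kilobase and Rps12 of the small subunit 4826. Rpl4 had 3337, Rpl13a 3280, Rpl17 2857 and Rpl7a 2731, and the first 11 genes in this order all hold a snoRNA. Rpl8, at 1152, was among the highest genes without one. At the other end of the tested members were Rps15a at 20.1 and Rpl9 at 22.7. Neighbours in this order mostly cannot be ranked. Over the 6 libraries Rpl4 ranged from 2854 to 4136 RPM per kilobase and Rpl13a, next in the order, from 2519 to 4226. The ranges overlapped in 68 of the 69 pairs of neighbours among tested members, the exception being Rps16 above Rpl37, a pair named after its values were seen.

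Rpl13 and Rpl35 were listed at or near 0. Rpl13 had 0, 0 and 1 reads in untreated and 2, 1 and 2 in treated libraries, and Rpl35 had 1 read in a single untreated library. Both encode core proteins of the large subunit. How reads were assigned where near-identical copies exist is not given in the sources used here. The 48 ribosomal protein pseudogene rows of the table held 0.0360% to 0.0693% of the reads of a library. These 2 members were not tested, which left 42 large and 28 small subunit genes.

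After tamoxifen, no ribosomal protein gene changed in the adjusted test. On the deposited signal, 0 of 70 tested members passed an adjusted p of 0.05 in limma, where 15 of all 11843 tested genes did (0.127%). At an unadjusted p of 0.05 the members numbered 0 of 70, against 12.0% of all tested genes. The smallest adjusted p of a member was 0.418, for Rpl35a. The log2 fold change was above 0 in 32 and below 0 in 38 members, with a median of -0.02 beside -0.01 for all tested genes. Its size was 0.11 at the median, against 0.21 for all tested genes. On deposited signal no member exceeded 1 on the log2 scale, and 1 member, Rpl5, exceeded 0.5. Of all 11843 tested genes, 517 exceeded 1 and 2044 exceeded 0.5. In bulk RNA, fewer cells with a message and less message per cell cannot be told apart.

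How much change the 3 libraries against 3 leave possible is given by the intervals. On deposited signal, the 95% interval lay within a 2-fold change in either direction for 62 of the 70 members, and for 8610 of all 11843 genes tested. It did so for 41 of the 43 members without a snoRNA and for 21 of the 27 with one. On recovered reads with trimmed-mean scaling the interval was within 2-fold for only 39 of the 70 members, and for 7654 of all genes tested. That held for 39 of the 43 members without a snoRNA and for 0 of the 27 with one. On deposited signal, the standard error of a member's log2 fold change ranged from 0.11 to 0.47, with a median of 0.15. A miss of the threshold does not show that the 2 groups were equal.

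**Figure D2:**
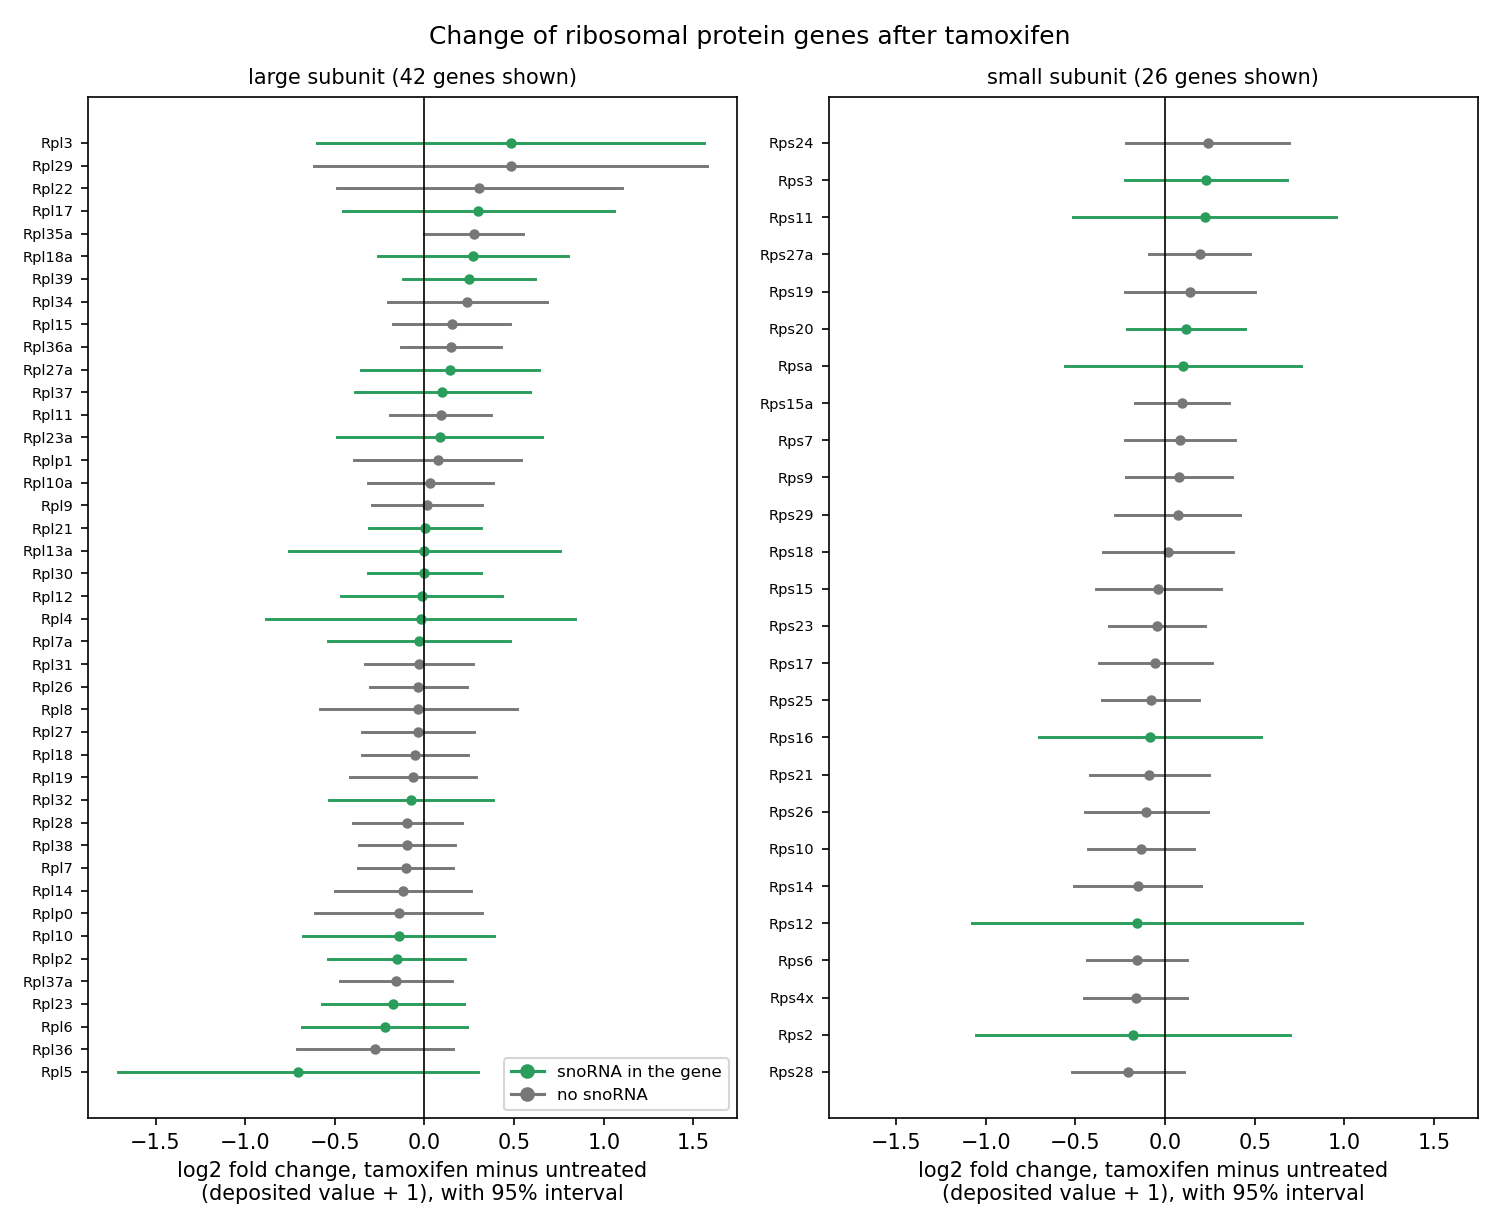
Log2 fold change of tested ribosomal protein genes, tamoxifen minus untreated, on the deposited value plus 1, with its 95% interval, for the 42 large and 26 of the 28 small subunit genes tested. Green marks genes with a snoRNA inside; every interval reaches 0, and Rpl5 lies farthest from it at -0.71.

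Among the large subunit genes, Rpl5 and Rpl11 are bound together with the 5S ribosomal RNA and, when free of the ribosome, hold back Mdm2, the ligase that degrades p53. Rpl5 (ENSMUSG00000058558), which holds 3 snoRNAs, had deposited signals of 94346, 153388 and 160345 in untreated and 153387, 50272 and 69152 in treated libraries. Tamoxifen replicates 2 and 3 were lower than every untreated library, while replicate 1 stood inside the untreated range. The log2 fold change was -0.71 (95% interval -1.71 to 0.30, adjusted p = 0.570 in limma). Without tamoxifen replicate 2 it was -0.36 and without tamoxifen replicate 1 it was -1.17. Rpl11 (no snoRNA) had 2433, 2414 and 2140 in untreated and 2423, 2569 and 2443 in treated libraries, which overlap, for a log2 fold change of 0.09.

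Rplp0 anchors the stalk of the large subunit, and Rplp1 and Rplp2 are the stalk proteins that recruit the translation factors. Rplp0 had deposited signals of 25185, 29428 and 18071 in untreated and 20592, 22616 and 21332 in treated libraries. Its treated libraries all lay inside the untreated range. The log2 fold changes were -0.14 for Rplp0, 0.07 for Rplp1 and -0.16 for Rplp2, with adjusted p-values of 0.818, 0.915 and 0.743 in limma. Rpl10, an X-linked gene whose protein joins the subunit late in its assembly, stood at -0.14.

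Rpl35a (ENSMUSG00000060636) is a large subunit gene mutated in some families with Diamond-Blackfan anaemia and has no snoRNA. Its deposited signals were 1790, 1829 and 1671 in untreated and 2198, 2091 and 2102 in treated libraries. All 3 treated libraries were above all 3 untreated ones. The log2 fold change was 0.27 ± 0.12 (SE), with a limma p of 0.0511 and an adjusted p of 0.418. On recovered reads with trimmed-mean scaling the log2 fold change was 0.23, with an adjusted p of 0.738 in limma.

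Groups without overlap were about as frequent among members as among all genes. The treated libraries were all higher in 5 of 70 members, among them Rpl35a, Rpl36a, Rps15a and Rps27a, where 9.49% of all tested genes were. They were all lower in 5 of 70, Rpl38, Rpl7, Rps10, Rps28 and Rps6, where 8.89% of all tested genes were. In either direction that is 10 members, beside 18.4% of all tested genes. Rpl38, Rpl7 and Rps10 are named for this pattern after their values were seen. The gap of Rps10 was under 1 unit of signal, with 6908 as the lowest untreated and 6907 as the highest treated value.

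Of the small subunit genes, Rps27a, made as a fusion of ubiquitin with the ribosomal protein, had deposited signals of 4748, 4310 and 5076 in untreated and 5409, 5273 and 5449 in treated libraries. All 3 treated libraries were above the untreated ones, for a log2 fold change of 0.19 and an adjusted p of 0.580 in limma.

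Rps6, the substrate of the S6 kinases downstream of mTORC1, had deposited signals of 7015, 6909 and 6195 in untreated and 6022, 5876 and 6130 in treated libraries. The treated libraries were lower in 3 of 3, by a log2 fold change of -0.16 with an adjusted p of 0.650 in limma. Rps28 showed 2440, 2548 and 3088 against 2322, 2292 and 2353. Untreated replicate 3 was the highest of its 6 values, and the log2 fold change was -0.21 (adjusted p = 0.598 in limma). X-linked Rps4x, at -0.16, and Rpsa, which is also known as a laminin receptor, at 0.10, overlapped between groups.

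A few members turned on 1 library. Rpl29, singled out after its values were seen, had 96, 154 and 40 recovered reads in untreated libraries and 59, 57 and 934 after tamoxifen. The last value is 183 RPM, against at most 27.1 in the other 5 libraries. Its log2 fold change on deposited signal was 0.48, and -0.15 without tamoxifen replicate 3. Rpl36 had 83, 155 and 197 reads in untreated and 51, 52 and 123 in treated libraries. In RPM, untreated replicate 3 stood apart at 73.6 where the others were at most 27.2, and the log2 fold change on deposited signal moved from -0.28 to -0.07 without it.

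The highest members had deposited signals that could hardly vary. In each library, the highest values of the normalized number behind the signal came in steps shared by 10 genes, and the same steps occurred in all 6 libraries. The first step was 2.28 times the second. Rpl13a (ENSMUSG00000074129) stood on the first step in 6 of 6 libraries, with signals of 571630 to 571636. Its RPM were 2638, 4147 and 4425 in untreated and 3331, 2822 and 3244 in treated libraries, which overlap. The deposited signal thus gave a difference of 0 for Rpl13a where RPM spanned 2638 to 4425.

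Rpl3 (ENSMUSG00000060036) was on the first step in 5 libraries and stood at 209899 in untreated replicate 2. It thus owed its log2 fold change of 0.48 to 1 library: without it the value was 0 to 2 decimals. In RPM, untreated replicate 2 was not low for Rpl3, at 9601 where the untreated group held 5995 to 9798. In all, 15 members were within the first 10 steps in at least 1 library and 9 in every library.

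Recovered reads therefore give a second view of the same libraries. With trimmed-mean scaling, 0 of 70 members passed the adjusted test in limma, where 0.0676% of all tested genes did. At an unadjusted p of 0.05, 2 members were lower and 0 higher, against 8.88% of all tested genes in either direction. They were Rps4x at -0.48 and Rpl7 at -0.42, with adjusted p-values of 0.520 and 0.549 in limma. In size, 1 member exceeded 1, Rpl36 at -1.13, whose untreated replicate 3 stood apart, and 12 members exceeded 0.5. Of all 11843 tested genes, 485 exceeded 1 and 2242 exceeded 0.5. The log2 fold change was below 0 in 64 of 70 members, with a median of -0.32, beside -0.01 for all tested genes. On deposited signal 38 were below 0. With trends on GC content and transcript length removed, 54 were below 0, the median was -0.16, and 0 members passed the adjusted test (0.244% of all tested genes did). At an unadjusted p of 0.05, 3 members were then higher (Rps27a, Rpl35a and Rpl36a) and 1 lower (Rps4x), against 12.9% of all tested genes. In RPM with no further scaling the median was -0.05, where that of all tested genes was 0.25. The difference, -0.31, was the same to 2 decimals as with trimmed-mean scaling.

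Members with and without a snoRNA were both mostly below 0 on recovered reads with trimmed-mean scaling. All 27 tested members with a snoRNA were below 0, with a median of -0.45, and 0 of them had an unadjusted p under 0.05 in limma. The 43 without one had a median of -0.18, and 37 were below 0. For the 218 other tested genes with a snoRNA the median was -0.24. With GC and length trends removed, the set without a snoRNA had a median of -0.04, with 27 of 43 below 0. That of all tested genes was -0.01. In RPM with no further scaling the set's median was 0.08 and 16 were below 0, where the median of all tested genes was 0.25. Trimmed-mean scaling moves all genes by the same amount, so the place of a set beside all genes is the same in RPM. The set with a snoRNA was below 0 in 27 of 27 with trends removed and in RPM, with medians of -0.33 and -0.18. Single libraries also moved these values. Without untreated replicate 3 the order of the sets turned, to -0.16 with a snoRNA (24 of 27 below 0) and -0.22 without (39 of 43 below 0). Without untreated replicate 1 the medians were -0.82 and -0.31, and without untreated replicate 2 they were -0.35 and -0.05. The difference between the 2 sets of members was not tested, since both are summaries over chosen genes.

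**Figure D3:**
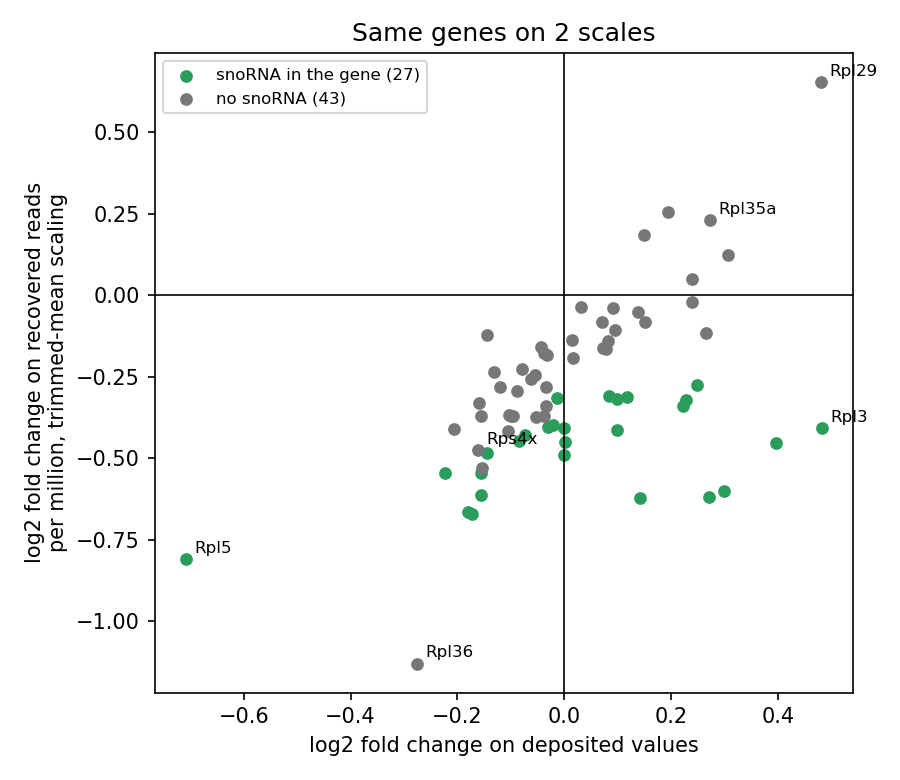
Log2 fold change of the 70 tested ribosomal protein genes on deposited signal (x axis) against RPM with trimmed-mean scaling (y axis), green with and grey without a snoRNA inside. Green points lie on both sides of 0 on the x axis and all 27 lie below 0 on the y axis; 64 of the 70 points are below 0 there.

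The libraries also differed within their groups. Members took 4.76%, 6.94% and 6.85% of recovered reads in untreated and 6.08%, 4.96% and 5.13% in treated libraries, or 6.18% ± 1.24 and 5.39% ± 0.604 (SD, n = 3 each). The ranges overlap. Members with a snoRNA took 4.06%, 6.10% and 6.39% in untreated and 5.55%, 4.21% and 4.38% in treated libraries. Members without one took 0.694%, 0.848% and 0.456%, and then 0.531%, 0.742% and 0.753%. The ratio of the first to the second was 5.85, 7.19 and 14.0 in untreated and 10.4, 5.68 and 5.82 in treated libraries. Untreated replicate 3 and tamoxifen replicate 1 were thus the highest, 1 in each group. The 10 genes with the most reads summed over the 6 libraries also took most in these 2, at 36.4% and 31.3%, against 20.2% to 24.9% in the others. Without both libraries the median of members was -0.02 on deposited signal and -0.29 on recovered reads, an alternative chosen after seeing the data.

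The spread between libraries of 1 group was wider for members with a snoRNA. Their median within-group SD was 0.26 on the log2 scale of deposited signal and 0.60 on that of recovered reads. Members without one had 0.13 and 0.23, and all tested genes 0.26 and 0.32. Members with a snoRNA also had more reads, with a median of 3924 per library against 318.

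**Figure D4:**
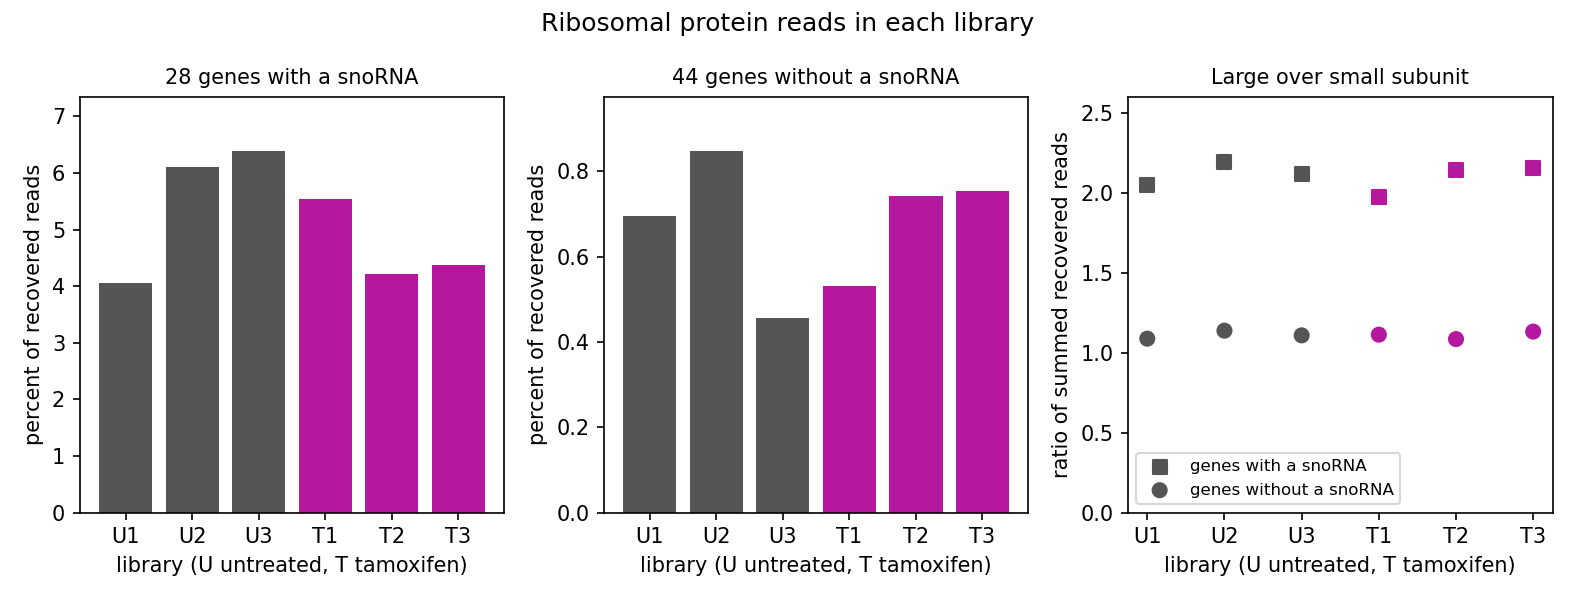
Percent of recovered reads on the 28 ribosomal protein genes with a snoRNA (left) and the 44 without (middle), and the ratio of large to small subunit reads in both sets (right, squares with and circles without a snoRNA), for 3 untreated (U) and 3 tamoxifen (T) libraries. The shares vary within groups, as from 4.06% to 6.39% in untreated libraries on the left, while the circles stay between 1.08 and 1.14.

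The proportion of large to small subunit reads overlapped between the groups. The ratio of summed recovered reads, large over small, was 1.86, 2.01 and 2.02 in untreated and 1.87, 1.92 and 1.95 in treated libraries. Among members without a snoRNA it was 1.09, 1.14 and 1.11 against 1.11, 1.08 and 1.13, or 1.11 ± 0.0251 and 1.11 ± 0.0234 (SD, n = 3 each). Among members with one it ran from 1.97 to 2.19 over the 6 libraries. On deposited signal the ratio spread more, from 1.54 to 2.25, and its groups overlapped. The median log2 fold change was -0.02 for the large and -0.01 for the small subunit on deposited signal, and -0.33 and -0.30 on recovered reads. The difference of these medians, -0.01 on deposited signal, lay between -0.06 and 0.03 with 1 library left out.

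Outside the naming rule lie 4 further genes of ribosomal proteins, and 0 of 4 passed the test. Rack1, the scaffold protein of the small subunit, stood at 0.58 on deposited signal, Rps3a1 at 0.02 and Fau, which encodes a ubiquitin-like fusion with a small subunit protein, at -0.37. Their adjusted p-values in limma were 0.636, 0.977 and 0.525. In Rack1, tamoxifen replicate 2 alone was at 571630, on the first step, where the other 5 libraries held 170720 to 250780. On recovered reads with trimmed-mean scaling Rack1 had the opposite sign, at -0.50, with Rps3a1 at -0.53 and Fau at -0.74. The median of the 4 genes on that scale was -0.51.

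Some ribosomal proteins have paralogues that can take their place. Of 8 listed, 6 were tested, 0 passed the adjusted test, and at an unadjusted p of 0.05 in limma 2 were higher and 1 lower. Rps27l, a paralogue of Rps27 known as a p53 target, had signals of 3387, 4000 and 4143 in untreated and 5274, 4719 and 4846 in treated libraries. All 3 treated libraries were higher, by a log2 fold change of 0.37 (95% interval 0.06 to 0.67, adjusted p = 0.340 in limma). Rpl39l, known for its expression in testis, had 1167, 1303 and 1017 in untreated and 737, 766 and 807 in treated libraries. All 3 were lower, by -0.59 on the log2 scale with an adjusted p of 0.201 in limma, while its counterpart Rpl39 stood at 0.25.

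Rps4l had 1, 1 and 1 recovered reads in untreated and 35, 20 and 3 in treated libraries. Its deposited signals were 1257, 983 and 1876 against 5435, 4901 and 2450, with a log2 fold change of 1.60 and an adjusted p of 0.152 in limma. The signal of an untreated library thus rested on 1 read. Rpl22l1 stood at 0.06 beside 0.31 for Rpl22, Rpl36al at -0.17 beside 0.15 for Rpl36a, and Rpl10l at 0.03 beside -0.14 for Rpl10. Rpl3l and Rpl7l1 had too few reads to be tested.

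Genes known to serve ribosome production were read from 4 lists, and 0 of them passed the adjusted test. Among 20 genes of translation factors and other TOP messages, 0 passed, 1 was lower at an unadjusted p of 0.05 in limma, and the median log2 fold change was -0.12. That gene was Npm1, the nucleolar chaperone nucleophosmin, at -1.30 on deposited signal (adjusted p = 0.159 in limma) and -0.23 on recovered reads. Of 53 ribosome assembly factors tested, 0 passed and 0 had an unadjusted p under 0.05, with a median of -0.05. The 17 genes of RNA polymerase I and Myc gave 0 and 0, with a median of 0.06. Of 21 genes of the mTORC1 pathway, 0 passed, 1 was lower at the unadjusted threshold, and the median was 0.05. These medians are on deposited signal. On recovered reads with trimmed-mean scaling they were -0.33 for TOP messages, -0.16 for assembly factors, -0.17 for RNA polymerase I and Myc and 0.03 for mTORC1. The median of members on that scale was -0.32, so a fall of this kind was not particular to them.

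Mdm2, the ligase that degrades p53, passed the adjusted test, in the list of 10 genes around the 5S ribonucleoprotein and p53. Its signals were 2054, 1674 and 2237 in untreated and 5041, 5615 and 4924 in treated libraries, so the groups did not overlap. It rose by 1.39 on the log2 scale, with an adjusted p of 0.047 in limma. With any 1 library left out the adjusted p was 0.0957 to 0.308, at a log2 fold change of 1.27 to 1.48, and on trimmed-mean scaled reads it was 0.105, at 1.20. Of the list, 2 of the 10 had an unadjusted p under 0.05, both higher. Rpl5 and Rpl11, whose proteins bind Mdm2, gave -0.71 and 0.09 beside it, as above, and neither passed the test.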

How the data were processed

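Total RNA was sequenced from 3 untreated and 3 tamoxifen-treated libraries of 1 mouse embryonic stem cell line. The deposited values are a normalized signal per Ensembl gene. The submitters' processing notes name TopHat2, bedtools, DESeq2 and the build mm9, without roles or versions. The aligner's settings, annotation and counting rule are not given in the sources used here. The deposited signal equals a constant times k (m + 0.1) / (k + 0.1), with k and m whole numbers. All 100305 values above 0 were solved, 98.8% with a single solution, to a largest relative misfit of 5.44e-15, and k was taken as the reads of the gene. Symbols, lengths and snoRNAs came from GENCODE vM21 by Ensembl identifier, which gave a symbol to 20273 of 22933 genes. Of the 76 annotated symbols that match the naming rule, 72 are in the table and 4 (Rpl24, Rpl41, Rps13 and Rps27) are not analysed here.

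limma 3.58.1 (R 4.3.3) was fitted with an expression trend to log2(signal + 1) of 11843 genes, those whose mean over libraries reached 10 recovered reads, and p-values were adjusted by the Benjamini-Hochberg method over all of them. Fold changes are on that scale, which understates the change of low genes. Trimmed-mean scaling of RPM (reads per total of 1000000, 0.5 added), and removal of GC and length trends by lowess (11495 genes), were alternatives. Signals that sit on 1 step in every library have no spread, and limma then takes their variance from the other genes. In data simulated from these libraries (11843 genes), the fit recovered 70% of 100 genes changed 2-fold and 98% of 100 changed 4-fold. Of its 173 calls, 5 were false. The simulation gave all genes 1 dispersion, 0.0128, and kept no shared steps. These rates may therefore not hold for members on the steps or for those with a snoRNA, whose spread was wider than that of other members. Sums, ratios and medians over members carry no p-value.

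The members, gene lists and tests were chosen with earlier results of these data known. Members named are those with the smallest p in each direction, the 3 highest and 3 lowest per kilobase in each subunit, the stalk proteins, Rpsa, Rpl5, Rpl11, Rps4x, Rpl10 and those with paralogues. The list of snoRNA hosts without a protein had 0 genes in the table and is not analysed here. Some genes that this rule names are not reported here.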

Additional observations from a re-analysis of the deposited data

How the results depend on the processing

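No member passed the adjusted test under any alternative tried. The count over all genes, 15 with the fit as reported, was less stable. Some alternatives kept it near that: 13 in RPM with no further scaling, 14 on signal with trimmed-mean scaling and 15 on signal with quantile normalization. It was 3 with 16 added in place of 1, 34 with a mean signal of at least 10 in place of 10 reads, 52 with no filter, 8 on reads with trimmed-mean scaling, 28 with GC and length trends removed, 3 without the expression trend, 0 to 1 with 1 library left out, and 0 with both untreated replicate 3 and tamoxifen replicate 1 left out (on signal and on scaled reads). The median of members, -0.02, was -0.32 on scaled reads, -0.16 with GC and length trends removed, -0.29 on scaled reads without both libraries and -0.18 on scaled reads of members without a snoRNA; the cause was not tested. Leaving out 1 library kept it between -0.01 and 0.002. Of 558 values of 31 single genes under alternatives, 57 changed sign without passing the test, 13 (all of Mdm2) no longer passed it, and 0 reversed a call.

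Replicate numbers are shared between groups but did not pair the libraries: the deviations of same-numbered libraries correlated at -0.00721, -0.0494 and 0.00478. With the replicate number as a block, 0 genes and 0 members passed.

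Some members had few reads: Rpl13 and Rpl35 had too few to be tested, and Rps28 rests on a mean of 63.5 reads. Per kilobase, Rpl13 and Rpl35 had 0.366 and 0.0457 RPM, against 20.1 for Rps15a, the next lowest member. The cause of the low values of Rpl13 and Rpl35 was not tested.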
